A study of Mus musculus with 4 samples.

Results

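Epithelial cells are held to their neighbours by junctions and stiffened by keratin filaments, and 9 genes of this equipment were followed: Epcam, Cdh1, Krt8, Krt18, Krt7, Cldn3, Cldn4, Cldn6 and Cldn7. They were chosen by name, with earlier results of these data known, and all 9 were among the 31053 genes of the count matrix. The matrix holds unique molecular identifier (UMI) counts of single mouse fetal cells from 4 libraries, 1 per group. All 4 are labelled as lung cells, which the contents of the E18.5 libraries go against, as given below. Every fetus was labelled Cyp27a1-/-, so each lacks by label the sterol 27-hydroxylase that makes 27-hydroxycholesterol, in both groups of each age. The groups were fetuses of a Cyp27a1+/- (heterozygous) or a Cyp27a1-/- (null) mother, labelled embryonic day E14.5 or E18.5. The labels do not say how many fetuses or litters a library holds, and no wild-type fetus was labelled. One E18.5 library, that with the heterozygous mother, has WT in brackets in its title, beside a genotype label of Cyp27a1-/-. With 1 library per group no test between mothers was possible, so a difference between them is one between 2 libraries. All intervals are exact 95% intervals of counting error only.

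E-cadherin, the product of Cdh1, joins neighbouring epithelial cells at adherens junctions. Claudins such as those of Cldn3, Cldn4, Cldn6 and Cldn7 form the strands of tight junctions, which seal the space between cells, and the EpCAM protein, from Epcam, is a surface adhesion molecule of epithelia that binds claudin-7. Keratins 8 and 18 pair into the filaments of simple epithelia, and keratin 7 is a type II keratin of ducts, airways and mesothelium, the sheet that covers the organs of the body cavities. Hepatocytes are epithelial cells whose keratins are 8 and 18, while bile duct cells add keratin 7.

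Several of the genes are neighbours in the genome (mm10). Cldn4 (chromosome 5, 134945119 to 134946934, minus strand) and Cldn3 (134986214 to 134987472, plus strand) lie 39279 bases apart with 0 annotated genes between them. Krt8 (chromosome 15, 101996698 to 102004482, minus strand) and Krt18 (102028180 to 102032027, plus strand) lie 23697 bases apart, also with 0 genes between. Krt7 is on the same chromosome (101411043 to 101430313). Epcam (87635979 to 87651129) and Cldn6 (23679249 to 23682446) are on chromosome 17, Cldn7 on chromosome 11 (69964779 to 69967885) and Cdh1 on chromosome 8 (106603351 to 106670246). Krt8, Krt7 and Cldn3 each overlap 1 noncoding gene on the other strand, Krt8 also has a processed pseudogene, and whether strand was used in counting is not given in the sources used here, so their counts are the less certain ones.

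Of the 9 genes, 8 had a RefSeq promoter window (GRCm38.p6), with 9 windows in all. The 250 bases before the start site are shown for Epcam, both filament partners Krt8 and Krt18, Krt7, and Cldn6, since these had the most different patterns over cell types described below. Capitals mark the E-box CAGGTG or CACCTG, letters bound by Snail and Zeb repressors of epithelial genes, and, in Epcam alone, ACCGGT, the core of the site bound by Grainyhead-like factors.
Epcam (chr17:87635729-87635978, plus strand): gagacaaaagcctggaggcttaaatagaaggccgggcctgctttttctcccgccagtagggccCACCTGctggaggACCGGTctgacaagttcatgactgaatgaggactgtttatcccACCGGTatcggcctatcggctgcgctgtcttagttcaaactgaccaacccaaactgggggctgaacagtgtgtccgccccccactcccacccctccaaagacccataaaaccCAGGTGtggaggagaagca
Krt8 (chr15:102004343-102004592, minus strand): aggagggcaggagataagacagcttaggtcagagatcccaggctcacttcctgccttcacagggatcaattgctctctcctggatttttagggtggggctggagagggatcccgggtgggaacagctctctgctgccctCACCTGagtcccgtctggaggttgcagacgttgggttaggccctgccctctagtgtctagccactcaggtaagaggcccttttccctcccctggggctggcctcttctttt
Krt18 (chr15:102027966-102028215, plus strand): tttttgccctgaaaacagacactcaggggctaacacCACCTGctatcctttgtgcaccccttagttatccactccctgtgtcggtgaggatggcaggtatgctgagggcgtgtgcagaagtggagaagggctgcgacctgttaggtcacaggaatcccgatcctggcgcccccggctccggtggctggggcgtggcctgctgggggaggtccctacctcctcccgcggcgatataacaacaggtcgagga
Krt7 (chr15:101412153-101412402, plus strand): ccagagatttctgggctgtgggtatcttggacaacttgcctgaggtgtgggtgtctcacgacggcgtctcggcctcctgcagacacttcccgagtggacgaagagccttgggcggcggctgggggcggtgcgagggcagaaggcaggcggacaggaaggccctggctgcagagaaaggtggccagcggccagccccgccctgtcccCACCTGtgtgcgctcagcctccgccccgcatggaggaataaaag
Cldn6 (chr17:23679115-23679364, plus strand): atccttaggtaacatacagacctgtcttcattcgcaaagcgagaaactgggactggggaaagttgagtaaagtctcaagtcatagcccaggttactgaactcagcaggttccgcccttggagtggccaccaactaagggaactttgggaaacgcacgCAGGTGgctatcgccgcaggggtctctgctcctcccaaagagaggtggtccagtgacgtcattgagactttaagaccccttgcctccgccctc
The E-box was in 7 of the 9 windows and in 17.2% of 32817 windows of all genes. Those of Cldn3 and 1 of the windows of Cldn7 did not hold it. ACCGGT was found at 2 places in the Epcam window, in 0 of the other windows, and in 1.86% of all windows. The GC box GGGCGG (or CCGCCC) was in 6 windows, against 32.7% of all. AACCGGTT and TATAAA were in 0 of the 9 windows, and in 0.116% and 12.4% of all. Both strands were read, a match is a description of the letters, and no motif overlapped another of those capitalised.

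Cells were assigned to classes by marker genes that did not include any of the 9. The E14.5 libraries held 319 (heterozygous mother) and 481 (null mother) lung epithelial cells, 64 and 19 mesothelial cells, and 1890 and 1763 mesenchymal cells. The lung epithelial gate was met by 1 and 0 cells of the libraries labelled E18.5, where Nkx2-1, the lung transcription factor, had 4 and 1 UMIs against 1935 and 2804 at E14.5, and Alb had 284409 and 984995. Most of their cells were of liver and blood, against their label of lung cells. The library with the heterozygous mother also had 20 gut epithelium-like and 4 pancreas acinar-like cells. Of these libraries 610 and 1816 cells were hepatocyte-like and 21 and 16 bile duct-like. Of the cells, 2252 and 1925 at E14.5 met no gate (median depths of 1084 and 1176 UMIs), and 55 and 56 met more than 1 gate and were left out. At E18.5 these were 1206 and 1690, and 933 and 1190. Library totals ran from 47005276 to 118054232 UMIs. Between 93 and 164 cell barcodes were shared by each pair of libraries. By Xist and Y-linked genes, 22 cells of the E18.5 library with the heterozygous mother were called female and 5395 male, against 4411 and 3875 with the null mother.

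**Figure D1:**
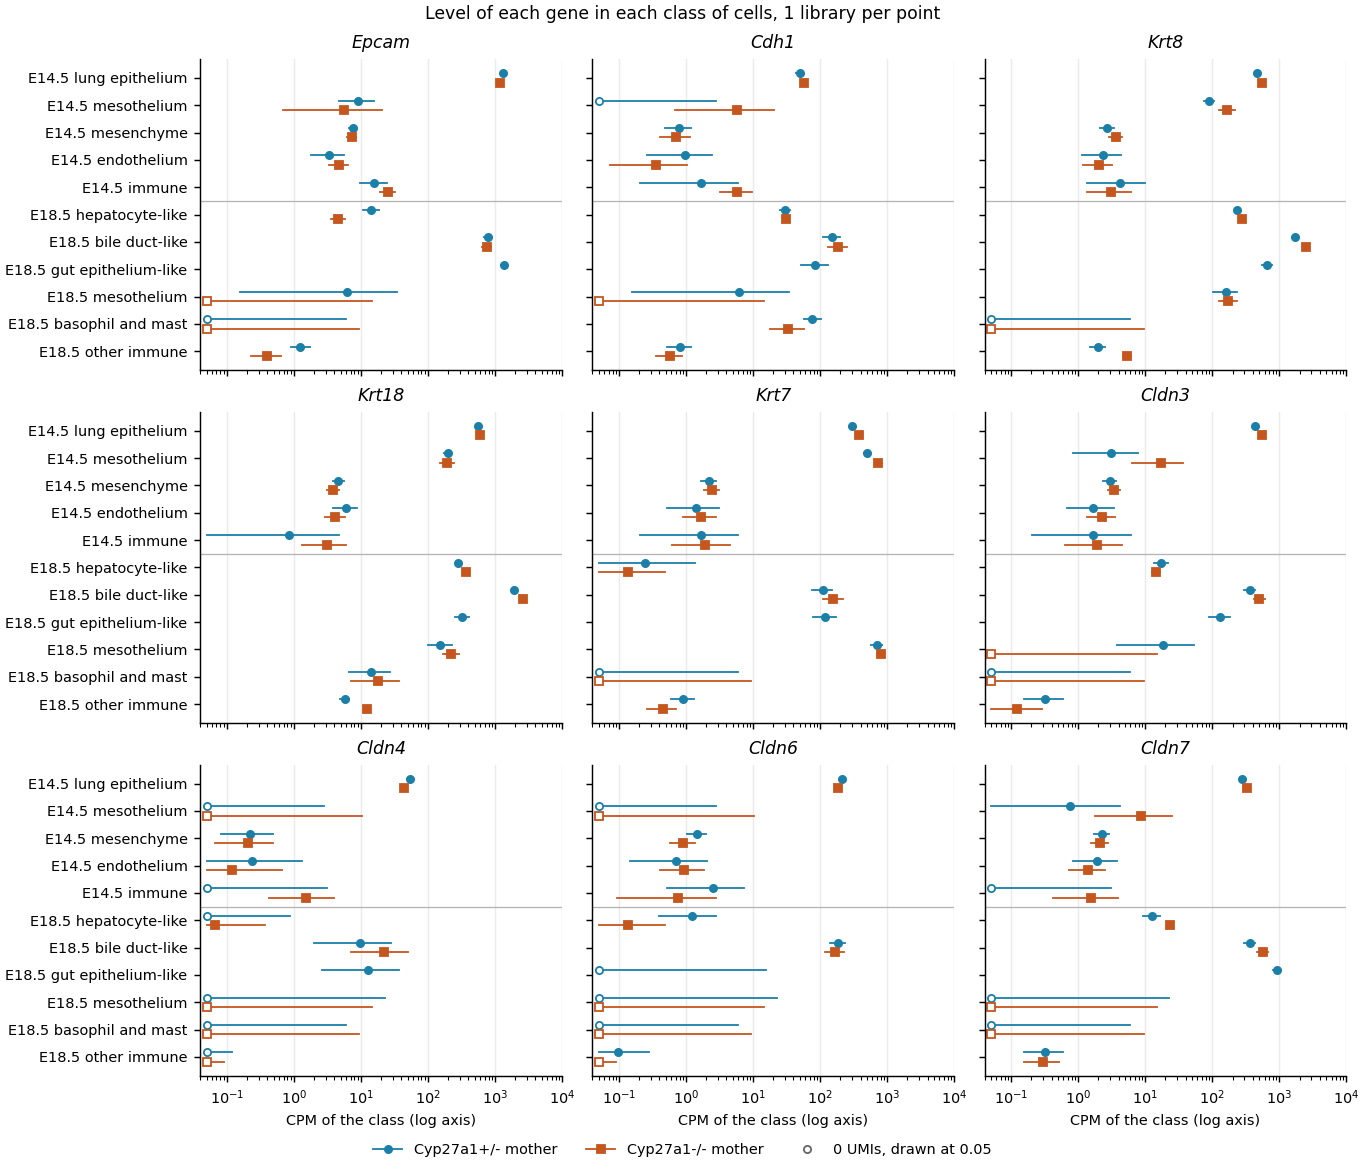
Level of each of the 9 genes (panels) in each class of cells, in CPM (UMIs of the gene per 1000000 UMIs of the class, log axis), with 1 point per library and its 95% Poisson interval. Blue circles are the Cyp27a1+/- mother, orange squares the Cyp27a1-/- mother, and open symbols are 0 UMIs drawn at 0.05; all 9 genes stand high in E14.5 lung epithelium and in bile duct-like cells, apart from Cldn4, which has 3 and 5 UMIs in the latter.

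In E14.5 lung epithelium all 9 genes were present, at 63.0-fold to 239-fold their levels in mesenchyme. Levels are UMIs of the gene per 1000000 UMIs of the class (CPM), given for the heterozygous and then the null mother. Epcam was at 1320.3 CPM (1293 to 1348) and 1183 CPM (1163 to 1204), against 7.70 and 7.25 CPM in mesenchyme. That is 172-fold (149 to 198) and 163-fold (141 to 191) more. Claudin genes gave like ratios over mesenchyme, 144-fold and 159-fold for Cldn3, 239-fold and 214-fold for Cldn4, 144-fold and 200-fold for Cldn6, and 120-fold and 158-fold for Cldn7. Krt8 was 170-fold and 153-fold higher, Krt18 119-fold and 156-fold, and Krt7 135-fold and 157-fold. Cdh1 had the smallest ratios, 63.0-fold (40.6 to 103) and 81.4-fold (50.4 to 141). The members' mesenchymal levels lay between 0.207 and 7.70 CPM, and the part of free RNA from broken cells in them was not tested. CPM are not divided by length, so levels are compared between classes and not between genes.

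The epithelial class took most of the RNA of each gene in the E14.5 libraries. It held 9120 of the 10136 and 12807 of the 14278 Epcam UMIs, and 80.4% and 83.8% of those of Cdh1. Of Krt18 it held 83.3% and 81.2%, and of Krt8 85.7% and 83.3%. The class was 6.44% and 9.93% of cells, but of the UMIs of all genes it held 6907342 of 47005276 and 10822356 of 53293964. The 4 claudin genes had between 88.4% and 90.5% there. Krt7 was the exception with the heterozygous mother, with 67.2% of its UMIs in epithelium and 21.6% in mesothelium, against 85.6% and 5.43% with the null mother, whose library held 19 mesothelial cells and not 64. Over whole libraries all 9 genes were higher with the null mother at E14.5, from 1.15-fold for Cldn4 to 1.75-fold for Cldn3, and in such library sums more epithelial cells and more RNA per cell cannot be told apart.

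Most epithelial cells held most of the genes. At full depth the median cell had a UMI of 8 of the 9 in both libraries. None of the 9 was found in 0 of 319 and in 1 of 481 cells. With every cell thinned to 2000 UMIs the median was 4 of 9, over 306 and 467 cells deep enough. At that depth Epcam was found in 89.9% (85.9 to 93.0) and 85.7% (82.1 to 88.7) of cells, Krt8 in 60.1% and 68.7%, and Krt18 in 60.5% and 68.3%. Cldn3 was found in 56.9% and 58.0%, Cldn7 in 40.5% and 48.8%, and Cldn6 in 30.1% and 30.4%. Krt7 was found in 38.2% (32.8 to 43.9) and 53.5% (48.9 to 58.1). Cdh1 and Cldn4 were sparse, in 12.7% and 15.2%, and 8.50% and 10.1% of cells. Thinned mesenchymal cells held Epcam in 2.33% and 1.73% and the other 8 genes in at most 1.31%. Unthinned shares are all higher, 98.7% and 97.9% for Epcam in epithelium.

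**Figure D2:**
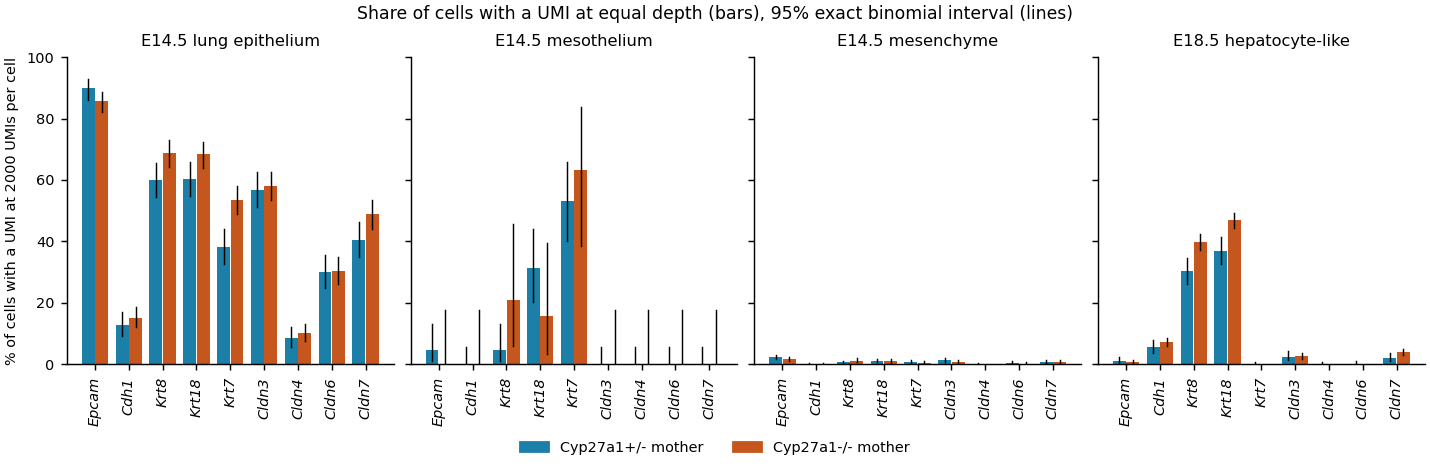
Percent of cells with at least 1 UMI of each gene after each cell was thinned to 2000 UMIs, in 4 classes, with bars per library (blue Cyp27a1+/- mother, orange Cyp27a1-/- mother) and 95% exact binomial intervals as lines. Epithelium holds all 9 genes, mesothelium mainly Krt7 and Krt18, hepatocyte-like cells Krt8 and Krt18, and mesenchyme is near 0 throughout.

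Between the mothers the genes of E14.5 epithelium as a whole differed by less than 1.5-fold. None of the 9 was past 1.5-fold in either direction, where 5.96% of the 9550 genes measured in this class were (measured means 50 or more UMIs on the side of the higher CPM). With the null mother 6 were higher and 3 lower, and the median log2 ratio was 0.18 (on CPM plus a pseudocount of 10) against -0.02 over all measured genes. The filament genes were higher, with Krt8 at 460 and 552 CPM, Krt18 at 549 and 601 CPM and Krt7 at 295 and 377 CPM, ratios of 1.20 (1.15 to 1.25), 1.10 (1.05 to 1.14) and 1.28 (1.21 to 1.35). Of the claudins, Cldn3 was at 430 and 547 CPM, 1.27-fold (1.22 to 1.33), and Cldn7 at 273 and 334 CPM, 1.23-fold (1.16 to 1.30). Cldn4, at 53.4 and 44.4 CPM, and Cldn6, at 209 and 182 CPM, were lower, at ratios of 0.830 (0.723 to 0.954) and 0.872 (0.814 to 0.933). Epcam was lower too, at 0.896 (0.873 to 0.921). Cdh1, at 49.2 and 57.3 CPM, had a ratio of 1.16 (1.02 to 1.33).

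All 9 intervals exclude a ratio of 1, but they carry no spread between fetuses or preparations. Other markers of this class differed between the same libraries. Sftpc, of surfactant, was at 1782 and 6646 CPM, and Sox9, of the same list of 6 distal genes, at 171 and 121 CPM. The whole list summed to 2788 and 7535 CPM, most of it Sftpc, so the sum shows no rise of the other distal genes. Of the airway markers, Scgb3a2 was at 36.2 and 218.5 CPM and Sox2 at 69.9 and 66.7 CPM. The list of alveolar type 1 genes summed to 153 and 313 CPM. Their part in the member ratios was not tested. In cells called female (165 and 293) the member median was 0.066 and in cells called male (95 and 122) it was 0.19.

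**Figure D3:**
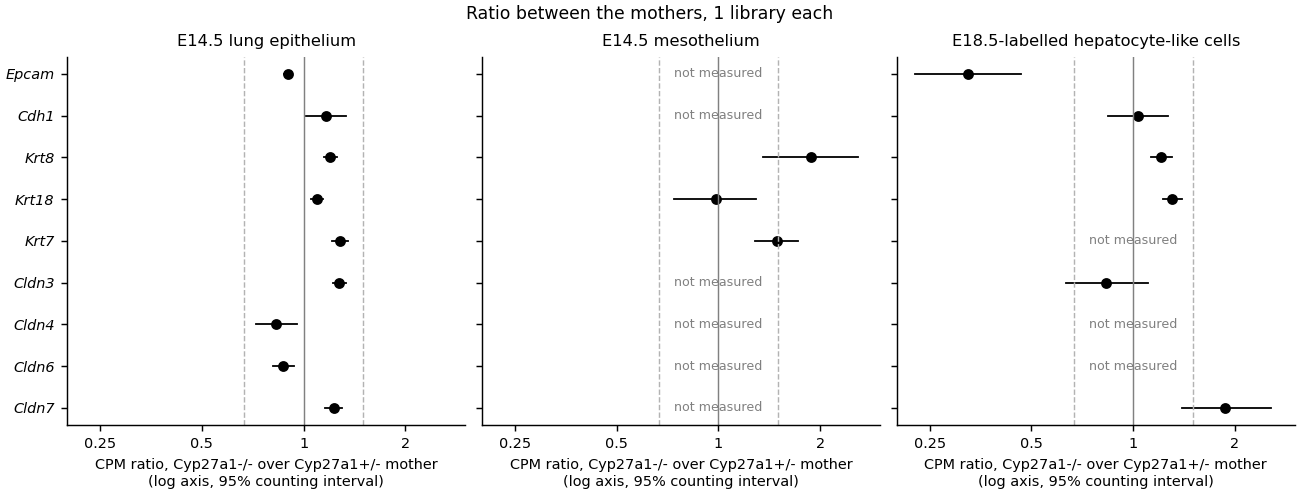
Ratio of CPM with the Cyp27a1-/- mother over the Cyp27a1+/- mother for each gene in 3 classes (log axis), with 95% counting intervals. Solid and dashed lines mark equality and 1.5-fold; the epithelial ratios lie between 0.830 and 1.28, and genes under 50 UMIs are written as not measured.

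Within E14.5 epithelium the filament genes and Cdh1 were higher in airway-type cells. Cells with a UMI of Sox2, the transcription factor of proximal airway, and none of Sox9, that of the distal tips, numbered 52 and 93, and cells with the reverse 195 and 269. The markers follow this split, with Scgb3a2 of secretory cells at 221 and 952 CPM in the Sox2-only and 0.790 and 1.11 CPM in the Sox9-only cells. Krt7 was at 485 and 514 CPM against 258 and 320 CPM, 1.88-fold (1.68 to 2.10) and 1.60-fold (1.48 to 1.73). Krt8 was at 680.0 and 748 CPM against 420 and 461 CPM, 1.62-fold in both libraries, and Cdh1 at 66.2 and 82.4 CPM against 43.5 and 45.4 CPM, 1.52-fold (1.11 to 2.06) and 1.81-fold (1.48 to 2.21). These 3 were past 1.5-fold upward in both libraries, where 5.93% and 10.9% of measured genes were. Krt18 was 1.26-fold and 1.40-fold higher, and Cldn7 was at 321 and 377 CPM against 269 and 316 CPM.

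The remaining genes were not past 1.5-fold in both libraries. Epcam had ratios of 0.990 (0.928 to 1.06) and 1.05 (0.998 to 1.10), and Cldn6 1.19 (1.02 to 1.39) and 0.967 (0.852 to 1.10). Cldn3 was the only member lower in Sox2-only cells in both libraries, at 0.860 (0.762 to 0.968) and 0.849 (0.787 to 0.914). Cldn4, with 49 and 102 UMIs in the Sox2-only cells, had ratios of 1.21 (0.871 to 1.65) and 1.57 (1.24 to 1.97). Sox2-only cells had median depths of 17278 and 18576 UMIs, and Sox9-only cells 27027 and 27524. Cells with both factors (28 and 39) or neither (44 and 80) were left out.

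Between the mothers, 0 of 8 measured members were past 1.5-fold in Sox2-only cells (10.2% of all measured genes were) and 0 of 9 in Sox9-only cells (4.93%). In cells with both factors 2 of 8 were (15%), Cldn7 at 1.54-fold (1.26 to 1.87) and Krt8 at 1.51-fold (1.32 to 1.74). In cells with neither 2 of 8 were (16.1%), Krt18 at 400.4 and 734 CPM, 1.83-fold (1.55 to 2.19), and Krt8 at 423 and 687 CPM, 1.63-fold (1.37 to 1.93). The cells with neither factor had median depths of 4961 and 14850.5 UMIs, and the part of depth in these ratios was not tested.

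**Figure D4:**
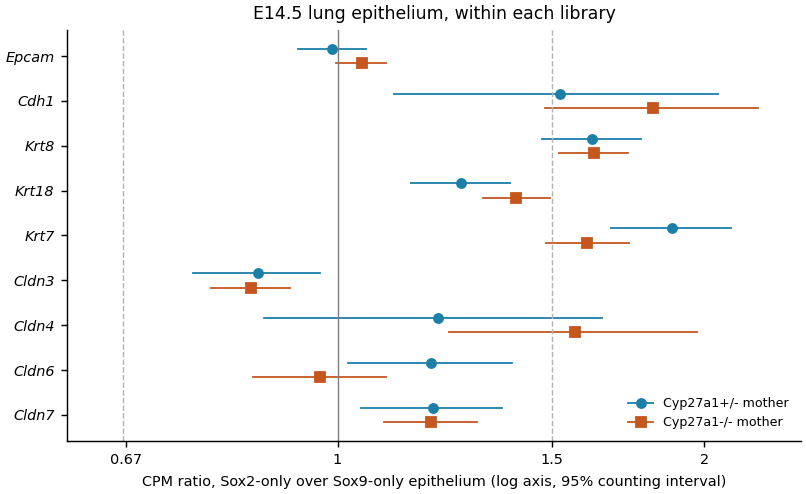
Ratio of CPM in Sox2-only over Sox9-only E14.5 lung epithelial cells for each gene within each library (log axis, 95% counting intervals; blue circles Cyp27a1+/- mother, orange squares Cyp27a1-/- mother). Krt7, Krt8 and Cdh1 lie above 1.5 in both libraries and Cldn3 below 1.

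Mesothelium of the E14.5 lung carried the keratins, with Cldn3, Cldn4, Cldn6 and Cldn7 at 0 to 6 UMIs each. Another claudin gene, Cldn15, was at 123 and 119 CPM there. Krt7 was at 495 and 736 CPM there, 1.68-fold (1.53 to 1.83) and 1.95-fold (1.71 to 2.21) its level in epithelium of the same library, and 226-fold and 306-fold that in mesenchyme. Krt18, at 197 and 193 CPM, was at 0.358 (0.315 to 0.406) and 0.321 (0.249 to 0.408) of its epithelial level, and Krt8, at 89.2 and 168 CPM, at 0.194 (0.160 to 0.233) and 0.304 (0.231 to 0.392). Epcam had 12 and 2 UMIs, 9.08 and 5.68 CPM, which is 1.18-fold (0.599 to 2.10) and 0.784-fold (0.0942 to 2.87) the mesenchymal level. Cldn4 and Cldn6 had 0 UMIs in both libraries, Cdh1 0 and 2, Cldn3 4 and 6, and Cldn7 1 and 3. With 3 UMIs in place of 0, Cldn6 was 92.0-fold lower than in epithelium with the heterozygous mother and 21.4-fold lower with the null mother. The exact intervals from the 0 UMIs found begin at 74.7-fold and 17.35-fold. A UMI of Krt7 was found in 96.9% and 94.7% of mesothelial cells, and in 53.1% and 63.2% at 2000 UMIs per cell. In mesenchyme these shares were 2.70% and 3.12%, and 0.775% and 0.577%.

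The libraries labelled E18.5 held 23 and 19 mesothelial cells, which also had the keratins. Krt7 was at 698 and 805 CPM, Krt8 at 159 and 171 CPM and Krt18 at 153 and 219 CPM, while Cldn4, Cldn6 and Cldn7 had 0 UMIs in both libraries. Epcam and Cdh1 had 1 UMI each with the heterozygous and 0 with the null mother. These cells held 43.0% and 69.2% of all Krt7 UMIs of their libraries, though 0.135% and 0.115% of the cells. Of the UMIs of all genes they held 163316 of 97894048 and 250877 of 118054232.

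Between the mothers, 3 members could be measured in E14.5 mesothelium. Krt7 had a ratio of 1.49 (1.28 to 1.72), Krt8 1.88 (1.35 to 2.59) and Krt18 0.982 (0.741 to 1.29), so 1 of 3 was past 1.5-fold, against 19.9% of 3033 measured genes. Their median log2 ratio was 0.56, against -0.20 over all measured genes. All 3 were above that -0.20, Krt18 by a log2 ratio of 0.17. The minimum number of UMIs favours genes lower with the null mother in this class, so the -0.20 is tilted downward. Whether Krt18 was higher relative to the class cannot be told from it. The member ratios rest on 19 cells of the null mother. There 44 of 59 Krt8 UMIs, 52 of 68 Krt18 UMIs and 144 of 259 Krt7 UMIs came from the 5 cells with the most. For Krt7, 67 UMIs came from 1 cell. The 9 mesothelial markers together summed to 2641 and 3668 CPM in the same cells, and their part was not tested. The direction of the median did not hold throughout: with all gates made 1 marker looser (67 and 17 cells) Krt8 was no longer measured, Krt18 had a log2 ratio of -0.72 and the median was -0.0614. Moved alone, 1 marker looser, the mesothelial gate gave a median of 0.54.

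Hepatocyte-like cells of the libraries labelled E18.5 held the keratin pair and a part of the junction genes. Krt8 was at 231 and 279 CPM and Krt18 at 280.0 and 365 CPM. That is 118-fold and 52.0-fold for Krt8, and 48.7-fold and 29.2-fold for Krt18, the level of other immune cells of the same libraries. In those immune cells Krt8 was at 1.96 and 5.37 CPM and Krt18 at 5.75 and 12.5 CPM. The smaller folds with the null mother thus go with higher immune levels, in which the part of free RNA was not tested. Cdh1 was at 29.9 and 30.8 CPM against 0.803 and 0.570 CPM in those immune cells, 37.3-fold (24.1 to 59.8) and 54.1-fold (35.6 to 86.2). Cldn3 was at 17.1 and 14.2 CPM and Cldn7 at 12.5 and 23.4 CPM. Epcam was at 14.2 and 4.61 CPM. Krt7 had 1 and 2 UMIs in 4146134 and 14953438 UMIs, Cldn4 0 and 1, and Cldn6 5 and 2. The median cell held a UMI of 1 and of 2 of the 9 genes, and 25.2% and 14.9% of cells held none. At 2000 UMIs per cell Krt8 was in 30.4% and 39.8% and Krt18 in 37.0% and 46.9% of cells, against 0.293% and 0.884%, and 0.790% and 1.91%, of thinned immune cells.

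In the comparison of mothers, 6 members were measured in hepatocyte-like cells, of which 4 were higher and 2 lower with the null mother. Past 1.5-fold were 2 of 6, Cldn7 upward and Epcam downward, where 12.3% of 7541 measured genes were. The median log2 ratio was 0.15, beside 0.10 over all measured genes. Against that 0.10, 3 members were higher and 3 lower, with Cdh1 among the lower. The minimum number of UMIs favours genes higher with the null mother in this class, so the 0.10 is tilted upward. It is not a clean measure of the shift of the class, and the place of Cdh1 relative to that shift cannot be told from it. Krt8 had a ratio of 1.21 (1.13 to 1.30), Krt18 1.30 (1.22 to 1.39), Cdh1 1.03 (0.844 to 1.27), Cldn3 0.832 (0.633 to 1.10) and Cldn7 1.87 (1.39 to 2.55). In male cells alone (248 and 531) the median was also 0.15.

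The Epcam ratio of 0.324 (0.226 to 0.467) rested on few cells. Of its 59 UMIs with the heterozygous mother, 45 lay in 5 of 610 cells and 24 in 1 cell. The share of cells with a UMI was 3.11% (1.89 to 4.82) and 2.31% (1.67 to 3.11), and 1.04% and 0.829% after thinning. Without the cells above the 95th percentile of UMIs, or with cells taken from clusters, Epcam had under 50 UMIs and was not measured. The sum of the 7 bile duct markers was also lower with the null mother, at 199 and 68.3 CPM, with Spp1 at 166 and 40.3 CPM, Pkhd1 at 1.45 and 1.54 CPM and Cftr at 0 in both. The gut list of 9 genes summed to 21.7 and 27.9 CPM. Their part in the Epcam value was not tested.

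Bile duct-like cells (21 and 16 in the libraries labelled E18.5) carried 8 of the genes with at least 34 UMIs each, and Cldn4 with 3 and 5. Epcam was at 789 and 758 CPM, Krt8 at 1689 and 2522 CPM and Krt18 at 1941 and 2592 CPM. Compared with hepatocyte-like cells of the same library, Krt8 was 7.32-fold and 9.03-fold higher, Krt18 6.93-fold and 7.10-fold, Cdh1 5.02-fold and 5.97-fold, and Cldn3 21.3-fold and 35.0-fold. Krt7, at 109 and 158 CPM, was 450-fold (75.5 to 18292) and 1179-fold (303 to 10104) higher, on 1 and 2 UMIs in hepatocyte-like cells. Cldn6 was at 182 and 166 CPM, and 67.9% and 62.3% of all its UMIs in these libraries lay in bile duct-like cells. Between the mothers 6 members were measured, 4 higher and 2 lower with the null mother, and Cldn7, at 361 and 561 CPM (1.55-fold, 1.20 to 2.02), was the 1 past 1.5-fold, against 11.8% of 795 measured genes. The 10 hepatocyte markers summed to 41572 and 47309 CPM in these cells, and their part in the values was not tested.

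A further epithelial class was found in 1 library. The library labelled E18.5 of the heterozygous mother held 20 gut epithelium-like cells, and the other library 0. They had Epcam at 1354 CPM, Cldn7 at 915.0 CPM, Krt8 at 658 CPM and Krt7 at 118 CPM, and 0 UMIs of Cldn6, where bile duct-like cells of the library had 57. They held 34.6% of the Epcam UMIs of that library. Epcam over the whole library was at 9.49 CPM, against 3.66 CPM with the null mother, a ratio of 0.386 (0.343 to 0.433). The part of the gut-like cells in that ratio was not tested. Thymic epithelium-like cells (5 with the null mother at E14.5) had Krt8 at 5377 CPM and Krt18 at 7874 CPM, with Krt7, Cldn3, Cldn4 and Cldn6 at 0 UMIs, among 62484 UMIs in all.

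Outside epithelia, few of the members were present. Basophils and mast cells labelled E18.5 (90 and 58 cells) had Cdh1 at 76.6 CPM (56.5 to 102) and 33.3 CPM (17.7 to 57.0), which is 95.5-fold and 58.5-fold that of other immune cells, with 0 UMIs of Epcam, Krt8, Krt7 and the 4 claudin genes in both libraries. Krt18 had 9 and 7 UMIs there, at 2.50-fold (1.13 to 4.86) and 1.43-fold (0.574 to 2.98) the level of other immune cells. At E14.5, immune cells had 19 and 65 Epcam UMIs, at a CPM 2.06-fold (1.22 to 3.30) and 3.45-fold (2.55 to 4.60) the mesenchymal level, while their Krt8 and Krt7 lay within counting error of it. Cdh1, with 2 and 15 UMIs, was at 2.14-fold (0.243 to 8.76) and 8.18-fold (3.81 to 17.4). Cldn4 had 0 and 4 UMIs, the latter at 7.42-fold (1.47 to 34.5). These 3 genes were uneven over clusters of the E14.5 cells. The cluster named immune (85 and 136 cells) had Epcam at 4.59, Cdh1 at 0.983 and Cldn4 at 0 CPM, both libraries together. A cluster of 18 and 48 cells, 60.6% of them of the immune gate, had them at 52.7, 13 and 4.79 CPM. So the values do not describe E14.5 immune cells in general. Heart muscle cells of E14.5 (75 and 32) had 8 and 4 Epcam UMIs, at 15.35 and 19.47 CPM. Their Krt18, with 11 and 5 UMIs, was at 21.1 and 24.3 CPM, against 4.61 and 3.85 CPM in mesenchyme. Heart muscle cells were shallow, with median depths of 1961 and 1603 UMIs against 13816.5 and 13728 in mesenchyme. Cells of no gate, also shallow, had Epcam at 113 and 103 CPM. The part of free RNA in the heart muscle values was not tested. B cells labelled E18.5 had 9 and 10 UMIs of Cldn4, at 1.10 and 1.06 CPM. Those were 50% and 43.5% of the Cldn4 UMIs of their libraries.

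Other junction and keratin genes, and their regulators, were read from 7 lists of 82 genes. In E14.5 epithelium 55 were measured, 36 higher and 19 lower with the null mother, with 8 past 1.5-fold (5.96% of all measured genes were). Their median log2 ratio was 0.10, against -0.02 over all measured genes. There 7 of 7 measured desmosome genes (of 9) were higher with the null mother, with 1 of them past 1.5-fold, and 10 of 13 measured epithelial regulators and Epcam partners were higher, with 1 past it. Tight junction partners split 7 and 7, with 0 past 1.5-fold, and adherens junction partners 7 and 4, with 1 past it. Of the other keratins 4 of 5 measured (of 11) were higher, of the other claudins 1 of 3 (of 15), and of the 7 repressors and mesenchymal genes 0 of 2. The largest log2 ratios were those of Klf5, an epithelial transcription factor, at 32.9 and 68.7 CPM (2.09-fold, 1.80 to 2.44), of Krt17, with 4 and 93 UMIs, and of Cldn18, a claudin of lung epithelium, at 403 and 671 CPM (1.67-fold, 1.59 to 1.74). The smallest were those of Cdh11, a mesenchymal cadherin, at 9.41 and 4.90 CPM, Cldn9 at 11.4 and 6.93 CPM, and Cdh3, which encodes P-cadherin, at 39.5 and 29.6 CPM.

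In mesothelium 12 related genes were measured, 3 higher and 9 lower with the null mother, with 2 past 1.5-fold (19.9% of all measured genes were). Their median log2 ratio of -0.17 lay near that of all measured genes, -0.20, of which the upper quartile was -0.04. The minimum of 50 UMIs favours genes lower with the null mother in this class, so these counts and medians are tilted that way. The largest log2 ratio was that of Krt19, a simple-epithelium keratin, at 380 and 841 CPM (2.21-fold, 1.91 to 2.56), followed by Vim, a mesenchymal filament gene, at 1345 and 1608 CPM, and Ctnna1, alpha-catenin, at 155 and 168 CPM. The smallest were Dsp, desmoplakin, at 56.7 and 34.1 CPM, Ctnnb1, beta-catenin, at 269 and 185 CPM, and Afdn at 87.7 and 65.3 CPM. In hepatocyte-like cells 29 were measured, 21 higher and 8 lower, with 6 past 1.5-fold (12.3% of all measured genes were). Their median of 0.08 was below that of all measured genes, 0.10, of which the lower quartile was 0.01. In this class the minimum favours genes higher with the null mother, and the counts and medians are tilted accordingly. The largest there were Krt20 at 19.3 and 31.3 CPM (1.62-fold, 1.28 to 2.08), Nectin1 at 9.17 and 13.9 CPM and Esrp2, a splicing factor of epithelia, at 10.1 and 15.0 CPM. The smallest were Ocln, occludin of tight junctions, at 18.3 and 11.3 CPM (0.617, 0.468 to 0.819), Vim at 13.5 and 8.69 CPM, and F11r at 50.2 and 42.3 CPM.

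Across the 26 sums of a class in a library with at least 50 cells, the gene most like each member, by Pearson r on log2 of CPM plus 10, was as follows. Epcam was most like Cldn6 (r = 0.975), Cldn6 most like Irx1 (0.999), Krt8 and Krt18 both most like Cgn, which encodes cingulin of tight junctions (0.976 each), Krt7 most like Dpysl5 (0.983), Cldn3 most like Myo5c (0.995), Cldn4 most like 2410017I17Rik (0.998), Cldn7 most like Mal2 (0.992) and Cdh1 most like Faah (0.927). The 5 genes most like the mean of the 9 were Prr15l, Kdf1, Arhgef16, Ripk4 and Mal2 (r from 0.972 to 0.985). These sums share libraries and hold both tissues, so the values describe which classes are high, and Irx1 is a marker of the epithelial gate.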

How the data were processed

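The deposited file holds raw UMI counts, whole numbers for each gene in each cell, from 10x Genomics Chromium libraries. Per the submitters' processing notes, Cell Ranger 3.0.0, mm10 and Seurat 4.3.0 were used, with no settings given. No cell had under 500 UMIs, and the names of the gene list and the cell list are swapped in the deposit, as their contents show. Members, lists and alternatives were chosen with earlier results of these data known.

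Cells were classed by marker genes: at least 4 found markers of a list (3 for lists of at most 6 genes), for hepatocytes at least 9 and at least 5% of the cell's UMIs, and for late erythroid cells at least 10%. This scoring was set after the cells had been seen. Nested classes went to the more specific one, and cells meeting more than 1 other gate were left out, which was the treatment of doublets. Counts were summed per class and library and given as CPM (UMIs per 1000000 of the class) with exact Poisson intervals, shares with exact binomial (Clopper-Pearson) intervals, and ratios of the null over the heterozygous mother with exact conditional binomial intervals. Log2 ratios used a pseudocount of 10 CPM. Measured genes had 50 or more UMIs on the side of the higher CPM, which limits what few cells can show, and a gene was called past 1.5-fold. Where the libraries differ in the total UMIs of a class, this minimum favours genes higher in the larger one. Thinning drew 2000 or 4000 UMIs per cell with a fixed seed. A count of 0 was replaced by 3 counts per class and library where a fold is given for a gene with 0 UMIs. The ratio and its interval were tested on simulated counts.

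Named genes are the 9 members, the 3 largest and 3 smallest log2 ratios of the related lists in each main class, and the genes most like the members. Genes of marker lists named beside a result were chosen after their values were seen, as were the motifs. The alternatives were looser and stricter gates, Leiden clusters (scanpy 1.11.5, leidenalg 0.10.2, igraph 0.11.9, named from the same markers without the members), other scalings, pseudocounts and minimums, means over cells, depth and quality filters and 1 sex. Python 3.11.15, numpy 2.4.6, pandas 2.3.3 and scipy 1.17.1 were used.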

Additional observations from a re-analysis of the deposited data

How the results depend on the processing

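No group has a second library, so no replicate could be left out. No paired analysis was possible, since each group has 1 library and the labels pair no fetuses or litters. In E14.5 lung epithelium the median log2 ratio of the members, 0.18, lay between 0.16 and 0.22 under every alternative except cells called female, at 0.066. In E14.5 mesothelium, 0.56, it turned to -0.0614 with all gates 1 marker looser. After that value had been seen, the mesothelial gate was also moved alone, the other gates staying in place, and this gave 0.54. Minimums of 10 and 200 UMIs gave 0.27 each, with 4 and 2 members measured, and female cells, an alternative added although under 50 cells were left, 0.0876. With so few members and cells the sign of that median is not settled by these data. In hepatocyte-like cells, 0.15, a minimum of 200 UMIs gave 0.32 with 4 members, and a hepatocyte list of at least 10% of UMIs, added after seeing the data, 0.32 with 5. Of the single members' values, 9 in epithelium, 1 in mesothelium and 13 in hepatocyte-like cells moved beyond their main intervals, while 126, 38 and 77 did not, and 0 of those past 1.5-fold turned in direction. Shares of cells depend on depth: the median over the 9 genes was 88.7% and 93.1% in epithelium, 40.5% and 53.5% at 2000 UMIs per cell and 64.4% and 71.6% at 4000. In mesothelium with the heterozygous mother it was 4.69%, and 0% at both depths. In hepatocyte-like cells it was 4.59% and 8.87%, 2.08% and 2.62% at 2000, and with the null mother 4.98% at 4000. Male mesothelial cells (15 and 5) and female hepatocyte-like cells (1 and 378) were too few to be run.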
